A study of Mus musculus with 12 samples.

Results

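Glands that were heterozygous for an epithelial deletion of Fgfr2b were compared with wild-type glands of the same cross, gene by gene, over the autosomal protein-coding genes. Of 20675 such genes in the count table, 13256 had enough counts to be tested, out of 15859 genes tested and 52636 features in all. Genes of chromosomes X and Y and processed pseudogenes were left out by rule, and 29 features called by the same test were set aside for being no autosomal protein-coding gene. The comparison rests on 2 heterozygous (HET) and 2 wild-type (WT) libraries out of 12.

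Mouse salivary glands were dissected at E13.5 (embryonic day) and grown for 2 days on filters, and bulk RNA was sequenced after depletion of ribosomal RNA. The cross, K14Cre-Fgfr2b, places Cre recombinase under the promoter of keratin 14, a keratin of basal epithelial cells, so the deletion is directed to epithelium and not to mesenchyme. HET and WT glands received no treatment, and the labels call them littermate controls of the homozygous (HOM, 2 libraries, untreated) glands. The labels do not say whether WT or HET glands carried Cre, nor which floxed alleles were present. The other 6 libraries are wild-type glands with the solvent DMSO (3 libraries) or with 2.5 µM SU5402, which blocks the kinase of FGF receptors (called FGFRi, 3 libraries). The library names share 1 number within each genotype, and nothing says whether both libraries of a genotype came from separate embryos or litters. The p-values below rest on a spread between libraries that was estimated over all 12 libraries, not over HET and WT alone. That spread may be technical, and litter or embryo cannot be told apart from genotype.

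Fgfr2b is the epithelial splice form of FGF receptor 2. In the salivary gland it receives FGF10 and FGF7 from the surrounding mesenchyme, and its signal through ERK switches on the transcription factors Etv4 and Etv5 and the feedback inhibitors of the Sprouty and Dusp families, and sustains the growth and branching of end buds. Mice without FGF10 fail to form salivary glands, and loss of a single Fgf10 copy makes the glands smaller. An explanted gland also holds mesenchyme, nerve, vessels and, where dissection leaves it, skeletal muscle of the floor of the mouth.

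Total counts were 13900648 and 11001035 in WT and 13840973 and 11679114 in HET. Levels are given as CPM, counts brought to a common library size with the trimmed mean of M values (TMM), in the order of libraries 1 and 2. All 4 libraries were male by Ddx3y (42.7 to 46.3 CPM) and Xist (0.540 to 4.10 CPM). Between 31.0% and 38.5% of counts fell on ribosomal-RNA-like features and 4.89% to 7.98% on mitochondrial genes. Among the ribosomal-RNA-like features, Lars2 was high in WT 2 and HET 1 (30707 and 13722 CPM) and low in WT 1 and HET 2 (3064 and 1682 CPM), and the stratified-epithelium list was high in WT 1 (897 CPM summed) against 293 in WT 2. The epithelial markers that the tissue label implies were present in all 4 libraries, with Cdh1 at 536 to 657 CPM, Epcam at 287 to 391 CPM and the acinar water channel Aqp5 at 61.0 to 84.9 CPM.

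In HET, 119 genes were higher and 46 were lower than in WT at an adjusted p under 0.05, by edgeR's quasi-likelihood test with Benjamini-Hochberg adjustment. Together these were 1.24% of the genes tested, 0.898% higher and 0.347% lower. An unadjusted p under 0.05 was reached by 1681 genes, 12.7% of those tested. The genes that rose included 12 of the mesenchyme lists, collagens among them, and 8 of the skeletal muscle lists. Those that fell included 14 replication-dependent histone genes. The median log2 fold change was 0.83 among the higher genes and -0.99 among the lower, and -0.01 over all genes tested. A change of at least 2-fold was reached by 40 of the higher and 23 of the lower genes. In all 165 genes the HET libraries lay wholly above or below the WT libraries, as they did for 22.3% (above) and 24% (below) of all genes tested. The plot of p against fold change shows the 3 groups of genes.

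**Figure D1:**
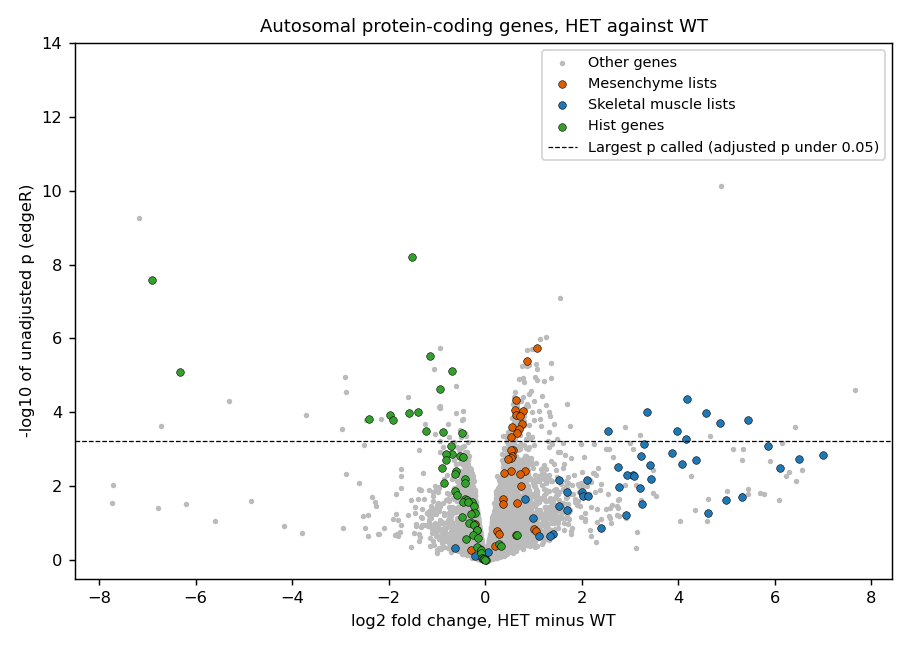
Each point is an autosomal protein-coding gene, placed by its log2 fold change of HET minus WT (x) and the -log10 of its unadjusted p from edgeR (y). The dashed line is the largest p among the 165 called genes; mesenchyme and skeletal muscle genes lie mostly to the right and Hist genes to the left.

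These counts depended on single libraries. Without WT 1 there were 6 higher and 10 lower genes, and without WT 2 there were 13 and 8. Without HET 1 the counts were 65 and 56, and without HET 2 they were 32 and 7. Leaving out either HOM library, which only lends its spread to the model, gave 77 and 34. Of the 165 genes, 156 lost their call in at least 1 of the 4 fits without a HET or WT library. The 9 that stayed called in all 4 were Eif3j2, Myof, Spon2 and Aldh1a2, which were higher, and Gm4737, Hist4h4, Hist1h4m, Gsta4 and Hist1h2ab, which were lower. They are named here because of this outcome. Scaling changed the split as well: 72.1% of the calls were higher as fitted, 85.2% with library totals and 91.6% with scaling to the pan-epithelial list, which moved the median of all genes to 0.14 and 0.18 on the log2 scale.

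Genes of the mesenchymal matrix were higher in HET. HET lay wholly above WT for 15 of 20 listed genes tested, beside 22.3% of all genes. An unadjusted p under 0.05 was reached by 14, beside 12.7% of all genes. Of the 20, 9 rose and none fell, beside 0.898% and 0.347% of all genes, and the list's median log2 fold change was 0.54. All 9 encode structural proteins of the extracellular matrix: the collagens Col1a1, Col1a2, Col5a1, Col5a2, Col6a1, Col6a2 and Col6a3, fibronectin (Fn1) and elastin (Eln). Col5a1, a chain of the collagen that starts fibrils, was at 198 and 212 CPM in WT and 321 and 314 in HET (log2 fold change 0.63, SE 0.11, adjusted p = 0.0137). Col1a2 was at 438 CPM in both WT libraries and at 715 and 651 in HET (0.64, SE 0.12, adjusted p = 0.0202). Col1a1, the other chain of collagen I, was at 516 and 524 CPM in WT and 847 and 802 in HET (0.67, SE 0.15, adjusted p = 0.0370). HET lay above WT in each of the 3, and HET 1 was higher than HET 2. The microfibrillar collagen chains Col6a1 (128 and 128 CPM in WT, 213 and 181 in HET) and Col6a2 (126 and 135 CPM in WT, 230 and 199 in HET) rose by similar amounts, with adjusted p = 0.0183 and 0.0206. Not every member of the list was higher: Postn was at 50.5 and 45.2 CPM in WT and 44.7 and 48.9 in HET, Vcan overlapped between the groups, and Fbln2 was at 151 and 171 CPM in WT and 135 and 139 in HET (adjusted p = 0.370).

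Of the transcription factors, receptors and other genes that mark mesenchyme, 18 were tested, with a list median of 0.60. HET lay wholly above WT for 15 of them, beside 22.3% of all genes, and 11 had an unadjusted p under 0.05, beside 12.7%. Of the 18, 3 rose and none fell, beside 0.898% and 0.347% of all genes tested. Alx4, a homeobox factor of craniofacial and limb mesenchyme, was at 26.4 and 26.3 CPM in WT and 61.2 and 50.5 in HET (log2 fold change 1.08, SE 0.14, adjusted p = 0.0019). Pdgfrb, the PDGF receptor of pericytes and fibroblasts, was at 28.3 and 27.2 CPM in WT and 55.1 and 46.7 in HET (0.87, SE 0.12, adjusted p = 0.0034). The third was Zeb1, a repressor of epithelial genes, at 13.7 and 11.3 CPM in WT and 21.3 and 22.1 in HET (adjusted p = 0.0183). Pdgfra, the receptor that marks most gland fibroblasts, was at 78.4 and 82.6 CPM in WT and 125 and 113 in HET, and Zeb2 at 26.7 and 24.9 in WT and 38.5 and 38.0 in HET. Neither passed the test (adjusted p = 0.0824 and 0.0645). Vim, the intermediate filament of mesenchymal cells, was at 266 and 261 CPM in WT and 260 and 258 in HET.

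Summed over the matrix list, RNA was 3383 and 3643 CPM in WT and 5227 and 4838 CPM in HET, a ratio of 1.43. The identity list summed to 668 and 677 CPM in WT and 877 and 807 in HET, a ratio of 1.25. In HOM the matrix sum was 5279 and 5559 CPM. The DMSO glands held 3261 to 3291 CPM and the FGFRi glands 4913 to 6881 CPM, so both HET libraries lay above all wild-type libraries without inhibitor. In bulk RNA, more cells of a type and more RNA per cell cannot be told apart. Calls in both mesenchyme lists numbered 12 with all libraries, 0 without WT 1, 2 without WT 2 and 3 without either HET library.

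**Figure D2:**
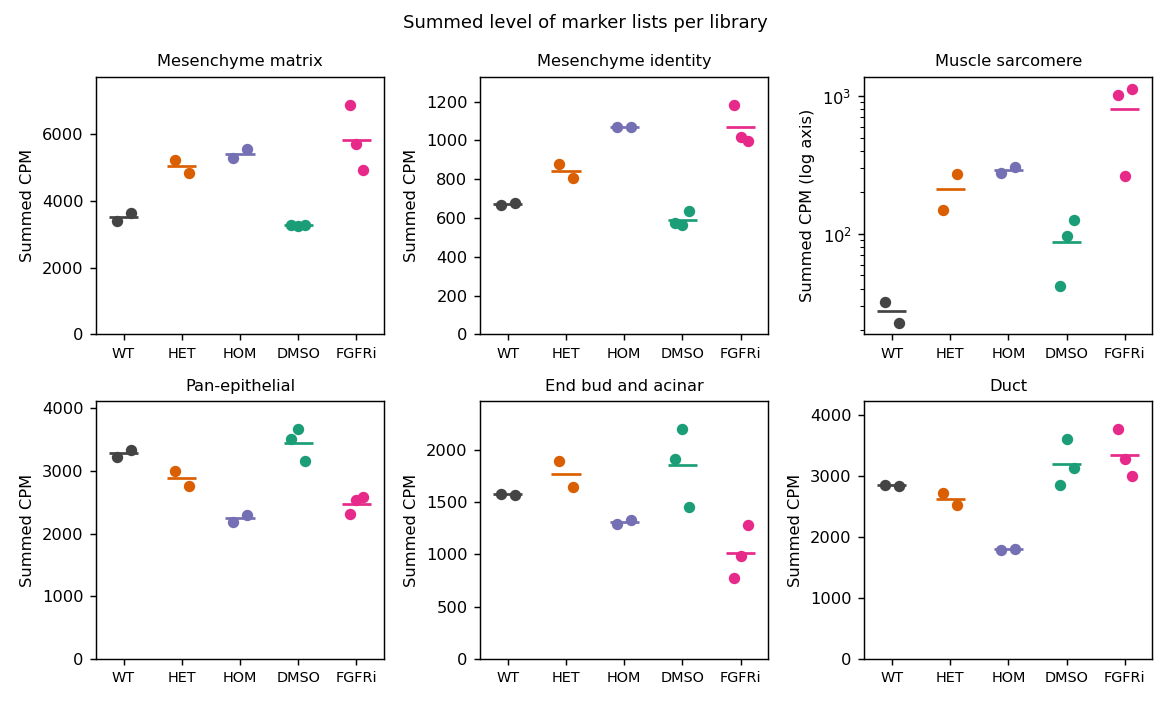
Summed TMM-normalised CPM of 6 marker lists, 1 point per library and a line at the group mean; the muscle panel has a log axis. The HET points lie above WT in the mesenchyme, muscle and end bud panels, and below WT in the pan-epithelial and duct panels.

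Other genes of fibroblasts and matrix remodelling were among the 119. They are described here after their values were seen, and they make up no list of their own. Mmp2, a gelatinase, was at 20.7 and 17.7 CPM in WT and 51.9 and 47.8 in HET (log2 fold change 1.37, SE 0.21, adjusted p = 0.0052), and at 29.3 and 31.4 CPM in HOM. Col6a5, a rare collagen VI chain, was at 1.98 and 2.38 CPM in WT and 7.57 and 7.16 in HET (1.77, SE 0.37, adjusted p = 0.0286). The retinoic acid pathway was represented by its synthetic enzyme Aldh1a2 (9.16 and 9.19 CPM in WT, 21.8 and 18.5 in HET) and by Stra6, which takes up retinol (2.86 and 2.59 CPM in WT, 5.98 and 6.03 in HET). Adjusted p was 0.0013 for the enzyme and 0.0230 for the transporter. The insulin-like growth factor binding proteins Igfbp3, Igfbp4 and Igfbp7 also rose, by 1.04, 0.54 and 1.17 on the log2 scale. Nid1 and Nid2, the nidogens of basement membrane, rose by 0.77 and 0.75, and Col18a1, another basement membrane collagen, by 1.06. Abcd2, a peroxisomal transporter of fatty acids, was at 1.76 and 2.27 CPM in WT and 5.45 and 5.31 in HET (adjusted p = 0.0270).

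Skeletal muscle RNA was higher in HET, from low levels in WT. Of 32 sarcomere genes tested 4 rose and none fell, and of 15 muscle regulators 4 rose and none fell. Of all genes tested 0.898% rose and 0.347% fell. HET libraries lay above both WT libraries for 29 of the 32 sarcomere genes, beside 22.3% of all genes tested. The list medians were 2.99 and 3.97, and 2.76 and 2.94 when genes without a WT count were set to a bound, the fold over 3 counts in the group. Ttn, the giant spring protein of the sarcomere, was at 5.35 and 2.16 CPM in WT and 40.6 and 104 in HET (log2 fold change 4.17, SE 0.74, adjusted p = 0.0134). Actc1, an actin of embryonic muscle, was at 1.61 and 0 CPM in WT and 17.2 and 28.6 in HET (4.58, SE 0.87, adjusted p = 0.0186). HET 2 was the higher library in both. Neb, the ruler of the thin filament, was at 1.17 and 1.19 CPM in WT and 9.31 and 15.0 in HET (3.35, SE 0.64, adjusted p = 0.0183). Ryr1, the calcium release channel of muscle, was at 0.952 and 0.865 CPM in WT and 4.16 and 6.59 in HET (2.54, SE 0.55, adjusted p = 0.0357).

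Regulators of myogenesis rose beside the contractile genes. Myog, the factor that drives myoblast differentiation, was at 0.439 and 0 CPM in WT and 6.13 and 9.73 in HET (log2 fold change 4.88, SE 0.99, adjusted p = 0.0259). Myod1, the factor that commits cells to muscle, was at 0.147 and 0 CPM in WT and 2.95 and 5.47 in HET (adjusted p = 0.0232). Cdh15, a cadherin of myoblasts, was at 0.293 and 0.108 CPM in WT and 2.195 and 4.90 in HET (adjusted p = 0.0358). Chrna1, a subunit of the acetylcholine receptor at the nerve-muscle junction, was at 0.147 and 0 CPM in WT and 1.51 and 1.93 in HET (adjusted p = 0.0444). Acta1, the main actin of skeletal muscle, was at 0.439 and 0.108 CPM in WT and 3.94 and 6.67 in HET, and did not pass the test (adjusted p = 0.108).

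The start regions of 6 of the 8 called muscle genes were found in the RefSeq promoter table (build GRCm38.p6, 250 bases before the start and 50 after). The MEF2 motif and CAGCTG, an E-box bound by myogenic factors, were searched on both strands, and the 2 promoters that held one are printed with matches in capitals. CAGCTG occurred in the Chrna1 promoter (chr2:73580289-73580588, minus strand) and a MEF2 match in the Ttn promoter (chr2:76982498-76982797, minus strand).
Chrna1: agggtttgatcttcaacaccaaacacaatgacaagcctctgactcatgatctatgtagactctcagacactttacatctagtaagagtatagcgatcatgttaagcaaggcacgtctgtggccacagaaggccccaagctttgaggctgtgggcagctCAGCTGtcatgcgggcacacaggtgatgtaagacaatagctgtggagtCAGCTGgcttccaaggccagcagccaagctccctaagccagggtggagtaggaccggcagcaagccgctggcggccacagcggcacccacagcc
Ttn: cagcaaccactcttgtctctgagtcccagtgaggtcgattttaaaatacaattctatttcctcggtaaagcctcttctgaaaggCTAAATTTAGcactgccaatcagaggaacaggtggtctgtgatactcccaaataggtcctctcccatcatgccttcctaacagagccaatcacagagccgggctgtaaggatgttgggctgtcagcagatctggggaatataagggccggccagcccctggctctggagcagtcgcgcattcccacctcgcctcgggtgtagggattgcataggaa
Each motif was thus found as an exact match in 1 of 6 promoters. The MEF2 pattern was YTAWWWWTAR, with Y for C or T, W for A or T and R for A or G. Near matches were not counted, so a promoter without a match may still hold a similar site. The Myog promoter held ctatatttat, which differs from the pattern in its last base. Among 32851 promoters of that length, 16.3% held CAGCTG and 3.19% the MEF2 motif. A match describes the letters of the window and is no measured binding.

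The sarcomere list summed to 32.2 and 22.7 CPM in WT and 149 and 272 CPM in HET, a ratio of 7.68. HOM glands held 276 and 305 CPM, DMSO glands 41.9 to 126 CPM and FGFRi glands 264 to 1129 CPM. Wild-type glands with DMSO thus differed among themselves up to 126 CPM, a level under that of HET 1 but above both untreated WT libraries. The regulator list summed to 119 and 117 CPM in WT and 159 and 165 in HET, a ratio of 1.37, well under its median fold. Calls in both muscle lists numbered 8 with all libraries and 0 without WT 1, WT 2 or HET 2. Without HET 1 there were also 8, but Chrna1 was not among them (adjusted p = 0.0671). There were 5 without either HOM library, 24 without FGFRi 2 and 13 without FGFRi 3. The part of dissected muscle in these values was not tested.

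Of the vessel and mural cell genes, 1 of 11 endothelial and 2 of 11 smooth muscle and pericyte genes rose and none fell. Both HET libraries lay above WT for 8 and 6 of them, beside 22.3% of all genes tested. An unadjusted p under 0.05 was reached by 5 and 4, beside 12.7% of all genes. The endothelial list summed to 11.3 and 11.7 CPM in WT and 17.4 and 32.9 in HET. Cdh5, the cadherin of endothelial junctions, was at 1.46 and 2.16 CPM in WT and 5.30 and 6.19 in HET (log2 fold change 1.69, SE 0.31, adjusted p = 0.0147), the only call among 11 endothelial genes, whose median was 1.25. Kdr, the VEGF receptor, was at 2.78 and 2.81 CPM in WT and 3.63 and 8.60 in HET (adjusted p = 0.174), Flt1 at 0 and 0.324 in WT and 0.454 and 2.09 in HET, and Pecam1 at 0.659 and 1.08 in WT and 1.59 and 3.14 in HET. HET 2 was the higher library for these 4. The 2 smooth muscle and pericyte genes that rose were Abcc9 (12.9 and 12.9 CPM in WT, 25.1 and 25.4 in HET, adjusted p = 0.0019) and Kcnj8 (0.220 and 0.108 CPM in WT, 1.06 and 2.33 in HET, adjusted p = 0.0392), which encode the 2 parts of a potassium channel of pericytes. Mylk and Myh11, of the contractile apparatus, did not pass (adjusted p = 0.0624 and 0.0912), and Acta2 was at 217 and 202 CPM in WT and 234 and 215 in HET.

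No gene of the epithelial lists passed the test in either direction: 0 of 19 pan-epithelial, 0 of 17 end bud and acinar, 0 of 21 duct, 0 of 17 basal, 0 of 26 tight junction and 0 of 12 desmosome genes. By an unadjusted p under 0.05 these lists held 4, 3, 3, 4, 2 and 1 genes, beside 12.7% of all genes tested. The pan-epithelial list had a median log2 fold change of -0.21, with 16 of 19 genes negative. Both HET libraries lay below WT for 14 of the 19, beside 24% of all genes tested. The list summed to 3231 and 3342 CPM in WT and 3001 and 2766 in HET. Cdh1, the epithelial cadherin, was at 603 and 657 CPM in WT and 536 and 542 in HET (adjusted p = 0.392), and Epcam at 362 and 391 in WT and 335 and 287 in HET (adjusted p = 0.245). The end bud list had a median of 0.02. Aqp5 was at 64.0 and 61.0 CPM in WT and 84.9 and 72.8 in HET (adjusted p = 0.527), while Sox9, a factor of end bud progenitors, was at 219 and 215 CPM in WT and 185 and 166 in HET (adjusted p = 0.207). The basal keratins differed between libraries more than between genotypes: Krt5 was at 82.8 and 14.8 CPM in WT and 41.9 and 77.6 in HET, and Krt14 at 137 and 63.7 in WT and 73.5 and 116 in HET.

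Fgfr2 itself was at 101 and 99.2 CPM in WT and 86.2 and 99.9 CPM in HET, and the groups overlapped (log2 fold change -0.11, SE 0.09, adjusted p = 0.645, and above 0, at 0.05 and 0.09, with library totals and epithelial scaling). The value covers every exon of the gene, in epithelium and mesenchyme, so it does not check the deletion of the exon specific to Fgfr2b. The mean of HOM was 91.8 CPM. Fgfr1, another FGF receptor, was at 214 and 189 CPM in WT and 185 and 211 in HET. The ligand Fgf10 was at 23.6 and 23.6 CPM in WT and 41.7 and 29.6 in HET, above WT in both libraries without passing the test (log2 fold change 0.60, SE 0.18, adjusted p = 0.141), and Fgf7 overlapped between groups. None of the 20 tested genes on either side of Fgfr2 on chromosome 7 was called: their median was -0.05, their range -1.09 to 2.54 and their smallest adjusted p 0.232, with 5 of 40 at an unadjusted p under 0.05, beside 12.7% of all genes. DESeq2 called none of them either.

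Genes that report FGF receptor and ERK signalling were mostly at WT levels within the spread of the libraries. Of 25 tested 1 rose and none fell, beside 0.898% and 0.347% of all genes tested, and the median was -0.02. An unadjusted p under 0.05 was reached by 3, beside 12.7% of all genes. HET lay wholly above WT for 6 and wholly below for 2, beside 22.3% and 24% of all genes. The gene that rose was Spry4, a feedback inhibitor of receptor signalling, at 15.1 and 15.6 CPM in WT and 24.8 and 22.4 in HET (log2 fold change 0.62, SE 0.12, adjusted p = 0.0206). Its relatives Spry1 (54.7 and 51.4 CPM in WT, 60.3 and 52.9 in HET) and Spry2 (69.8 and 71.3 in WT, 83.7 and 67.1 in HET) overlapped between the groups. Etv4 was at 25.1 and 27.8 CPM in WT and 26.1 and 24.8 in HET, and Etv5 at 155 and 159 in WT and 160 and 138 in HET. Dusp6, the phosphatase of ERK, was at 131 and 139 CPM in WT and 122 and 113 in HET (adjusted p = 0.502), Dusp7 at 46.5 and 43.6 in WT and 61.8 and 52.1 in HET (adjusted p = 0.186), and Dusp5 and Il17rb did not pass. Kit, a receptor of end bud progenitors, was at 74.7 and 78.2 CPM in WT and 76.5 and 78.4 in HET, and the neural crest and bud factor Sox10 at 189 and 186 in WT and 173 and 157 in HET (adjusted p = 0.547). In the FGFRi glands, which share no library with HET or WT, Etv4 fell by 1.21, Etv5 by 0.73, Kit by 1.06 and Spry4 by 0.40 on the log2 scale against DMSO, with adjusted p of 0.0204 or less. Spry4 was thus lower with the inhibitor and higher in HET. In HOM it was at 29.7 and 26.7 CPM, also above WT (log2 fold change 0.88, adjusted p = 0.0005). Etv4 and Etv5 were higher in HOM than in WT (0.53 and 0.48, adjusted p = 0.0149 and 0.0217), while Spry1, Spry2, Dusp6 and Kit did not pass.

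How far the HET change went along with mesenchyme and muscle was examined by adding the log2 of each library's summed list to the model. With the sum of both mesenchyme lists as a covariate, 1 gene was higher and 7 were lower. With the muscle sum, 26 were higher and 6 lower, and with both sums 1 and 2. The gene higher with both was Eif3j2 and those lower were Hist1h3f and Gm4737. The covariates were themselves higher in HET (mesenchyme 4085 and 4324 CPM in WT, 6137 and 5402 in HET; muscle 153 and 139 in WT, 310 and 418 in HET), so these fits also leave less of the genotype to be seen, and lost calls do not show that levels were equal. With the mesenchyme covariate the log2 fold change of Col1a1 went from 0.67 to 0.09, of Col1a2 from 0.64 to 0.17 and of Pdgfra from 0.56 to -0.04. That of Alx4 went from 1.08 to 0.75, of Pdgfrb from 0.87 to 0.57. All of these genes are members of the mesenchyme sum. Each was thus adjusted in part for itself, and a smaller value follows in part from that design. The log2 fold changes of Spry4 (0.62 to 0.67), Abcc9 (0.97 to 0.99) and Myof (1.55 to 1.41), which are not in the sum, stayed closer to their first value. Members and other genes can therefore not be compared by this fit. Since 1 gene was called higher in it, Spry4, Abcc9 and Myof did not all keep their calls, and with both sums none of them did. With the muscle covariate Ttn went from 4.17 to 2.34 (adjusted p = 0.0207) and Myog from 4.88 to 2.83 (adjusted p = 0.0427). Ttn and Myog are members of the muscle sum, so they too were adjusted in part for themselves. In WT most of that sum came from the regulator list (119 and 117 CPM), whose ratio of HET to WT was 1.37. The sarcomere list gave 32.2 and 22.7 CPM, with a ratio of 7.68. The muscle sum thus followed sarcomere RNA only in part, and calls kept with it do not show a change beyond muscle. With this covariate Alx4 was at 1.18 and Pdgfrb at 0.99, and both were called.

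The FGFRi and DMSO glands gave a second set of libraries that also differed in mesenchyme and muscle. Of the 119 genes higher in HET, 87 (73.1%) were also higher with FGFRi than with DMSO, 5 were lower and 27 were not called. Of all genes tested 10.7% were higher with FGFRi, and the 87 made up 6.15% of those. Of the 46 genes lower in HET, 11 (23.9%) were lower with FGFRi, 5 were higher and 30 were not called, beside 12.3% of all genes that were lower. The median log2 fold change of FGFRi over DMSO was 0.87 over the 119 genes, -0.12 over the 46 and -0.03 over all genes. Without single libraries the 98 genes with the same direction became 4 (without WT 1), 9 (WT 2), 62 (HET 1), 21 (HET 2) and 65 (either HOM library).

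**Figure D3:**
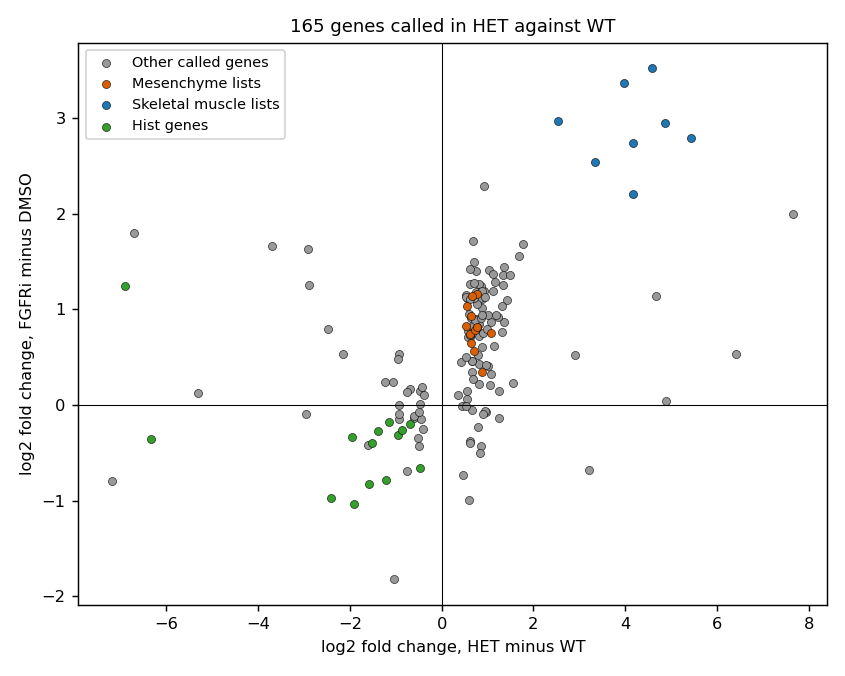
The 165 genes called in HET against WT, by their log2 fold change of HET minus WT (x) and of FGFRi minus DMSO (y), with mesenchyme, skeletal muscle and Hist genes coloured. Most genes right of 0 lie above 0, while genes left of 0 lie on both sides.

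Of the genes higher in HET, 4 that were not called between FGFRi and DMSO are described here, chosen after their values were seen. Myof, a ferlin that mends and fuses membranes, was at 16.3 and 13.6 CPM in WT and 44.7 and 43.3 in HET (log2 fold change 1.55, SE 0.16, adjusted p = 0.000126). In HOM it was at 16.6 and 18.3 CPM, lower than in HET (log2 fold change of HOM minus HET -1.33, SE 0.15, adjusted p = 0.000319). Spon2, a secreted matrix protein, was at 12.1 and 12.1 CPM in WT, 29.98 and 27.98 in HET, against 15.8 and 14.7 in HOM. For Spon2, HOM was again lower than HET (adjusted p = 0.0051). In the wild-type DMSO libraries, however, Spon2 was at 31.2 to 43.9 CPM, above both HET libraries. Myof was at 20.7 to 32.0 CPM there, above WT and below HET. Srp9, of the signal recognition particle, was at 11.8 and 11.1 CPM in WT, 24.2 and 19.9 in HET, against 9.68 and 11.4 in HOM (adjusted p for HOM against HET 0.0026). Trim12a had no count in WT and was at 1.89 and 2.17 CPM in HET, at least 15.5-fold higher when 3 counts over the WT group are taken as the limit. HOM held 0 and 0.0414 CPM of it. In the DMSO libraries Trim12a had no count and Srp9 was at 10.8 to 14.9 CPM. Other genes higher in HET and not called with FGFRi stayed high in HOM. Among them were Abcc9, at 35.6 and 30.9 CPM in HOM, and Col18a1, at 30.9 and 25.5 CPM in WT and 61.4 and 76.4 in HOM. For background, 1.55% of the genes tested were called between HOM and HET.

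Replication-dependent histone genes made up 14 of the 46 falls. These genes encode the core and linker histones made in S phase, and their RNA ends in a stem-loop without a poly(A) tail, so they are read here because the libraries were depleted of ribosomal RNA and not selected for poly(A). They were grouped by the symbol Hist after the calls were seen. Of 56 tested 14 were lower in HET and none higher, beside 0.347% and 0.898% of all genes tested. The median log2 fold change of the 56 was -0.43, and 52 of them were negative. Both HET libraries lay below both WT libraries for 44, beside 24% of all genes tested. The 48 tested on chromosome 13 gave 13 of the calls, and Hist4h4 on chromosome 6 gave the other. Summed over all Hist genes, RNA was 5421 and 5495 CPM in WT and 4494 and 3631 in HET, with 4722 and 4590 in HOM.

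Hist4h4, an H4 gene outside the main cluster, was at 163 and 177 CPM in WT, 63.4 and 56.0 in HET, against 156 and 163 in HOM (log2 fold change of HET minus WT -1.51, SE 0.13, adjusted p = 1.4e-05). Hist1h3f was at 55.5 and 59.1 CPM in WT, 0.757 and 0.643 in HET, against 107 and 102 in HOM (adjusted p = 0.0043). Hist1h4m was at 10.03 and 11.1 CPM in WT, had 2 counts in HET, and was at 7.76 and 5.05 CPM in HOM and at most 0.164 CPM in any DMSO library. Hist1h2bg (61.5 and 73.2 CPM in WT, 22.5 and 11.9 in HET), Hist1h4f (133 and 123 in WT, 41.6 and 26.5 in HET), Hist1h2be (44.9 and 46.4 in WT, 19.001 and 11.3 in HET) and Hist1h2ad (6.01 and 4.32 in WT, 0.908 and 1.05 in HET) fell with adjusted p from 0.0186 to 0.0232. In most of these HET 2 was the lower library. Several of the named genes also varied among the wild-type DMSO libraries, with DMSO 3 the low one. Hist1h4f was at 117, 119 and 42.5 CPM there, the last close to HET 1. Hist1h2be was at 54.9, 60.1 and 28.7 CPM and Hist1h3f at 87.7, 67.3 and 19.9. Hist1h2bg was at 32.3 CPM in DMSO 3. These DMSO values all lay above both HET libraries of the same gene. Hist4h4 varied less, at 160 to 197 CPM in DMSO. Other genes of the cell cycle did not pass: 0 of 28 mitosis genes were called, although 27 had a negative log2 fold change (median -0.21), 21 lay wholly below WT (24% of all genes did) and 11 had an unadjusted p under 0.05 (12.7% of all genes). Of 27 S-phase genes 0 were called, with a median of -0.06 and 4 at an unadjusted p under 0.05.

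**Figure D4:**
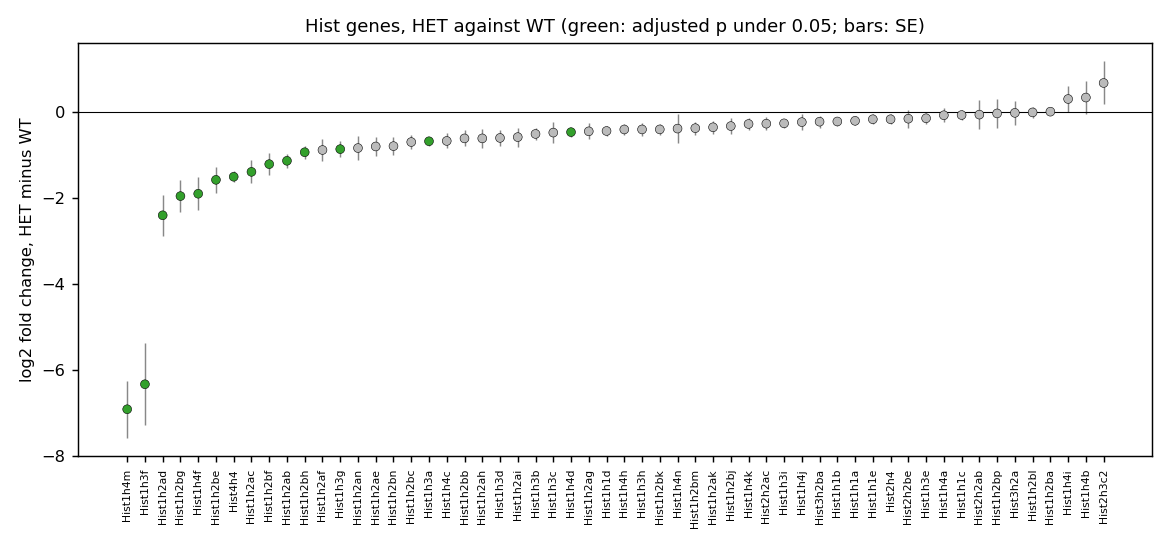
Log2 fold change of HET minus WT with its SE for the 56 Hist genes tested, in order of size; green points passed the test. The 14 called genes are all below 0, and 52 of 56 points are negative.

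Several of the largest changes were of genes with a near-identical copy, where reads can be shared out differently. Of the 46 lower genes 8 had more than 50% of their 50-base words in another gene, and of the 119 higher genes 2 did. Gm4737, a near-identical copy of Ahcy, the enzyme that breaks down S-adenosylhomocysteine, was at 25.6 and 22.4 CPM in WT and 0 and 0.322 in HET. Ahcy was at 28.3 and 32.2 CPM in WT and 60.8 and 49.0 in HET. The sum of both genes was 53.8 and 54.6 CPM in WT and 60.8 and 49.3 in HET (log2 fold change 0.02, SE 0.12, adjusted p = 0.964). The 2 transcripts of GENCODE M21 are 99.7% identical over 2086 aligned bases, and a stretch of 60 coding bases, from position 525 of Ahcy and 485 of Gm4737, shows how little tells them apart, with the bases that differ in capitals.
Ahcy: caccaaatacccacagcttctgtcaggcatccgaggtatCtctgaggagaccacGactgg
Gm4737: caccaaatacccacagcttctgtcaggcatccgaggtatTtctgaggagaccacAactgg
HOM held 39.1 and 38.9 CPM of Ahcy and 10.3 and 12.2 of Gm4737.

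Eif3j2, a copy of the translation factor subunit gene Eif3j1, was at 0.439 and 0.216 CPM in WT and 11.8 and 9.25 in HET (log2 fold change 4.88, SE 0.30, adjusted p = 2.9e-07). Eif3j1 was at 29.9 and 33.2 CPM in WT and 27.2 and 19.8 in HET, and their sum did not pass the test (0.10, SE 0.14, adjusted p = 0.811). The same held for Amd1 with Amd2 (log2 fold change of the sum -0.20, adjusted p = 0.433), Mfap1a with Mfap1b (-0.27, adjusted p = 0.355) and Hist1h4m with Hist1h4n (-0.80, adjusted p = 0.283). The summed pair Hist1h3g and Hist1h3h (-0.67, adjusted p = 0.0456) and a family of 11 Hist1h2a genes (-0.79, adjusted p = 0.0238) were lower in HET. With all copies summed, 116 features were higher and 41 lower. Eif3j2 was at 10.03 to 12.5 CPM in the DMSO libraries and 3.60 to 4.08 CPM in HOM, so the WT libraries were the low ones.

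**Figure D5:**
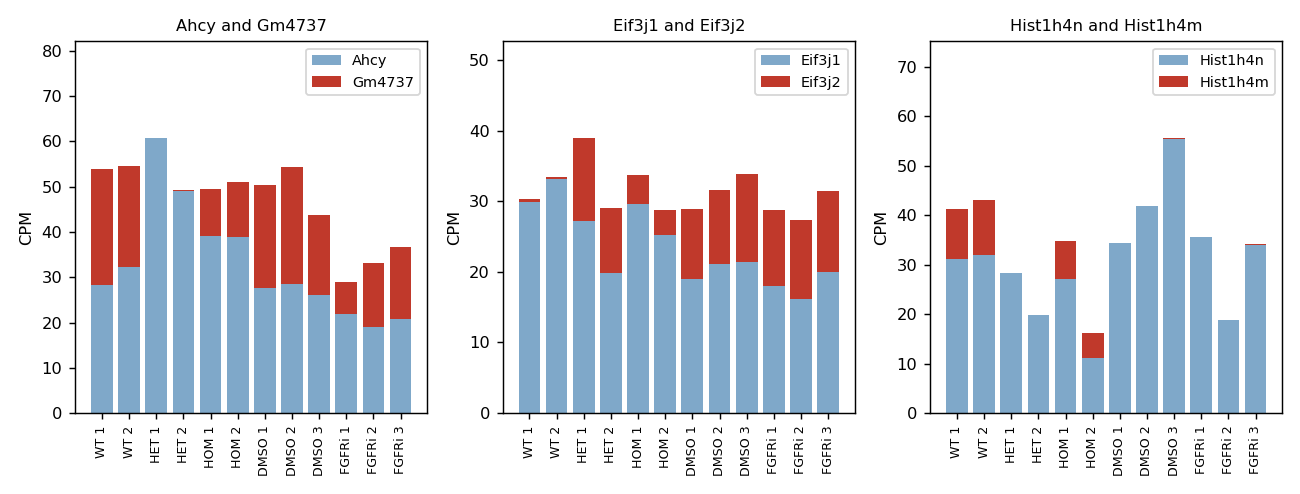
Stacked CPM per library of Ahcy with Gm4737, Eif3j1 with Eif3j2, and Hist1h4n with Hist1h4m. The copy (red) changes between genotypes while the height of the Ahcy and Eif3j stacks differs less between WT and HET.

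Besides Gm4737, whose symbol is a clone name and so stayed outside the rule, the 10 largest falls at 5 CPM or more held 4 genes that were not Hist genes: Marco, Upb1, Pianp and Lgals7. Marco, a scavenger receptor of macrophages, was at 6.15 and 4.43 CPM in WT and 0.757 and 0.643 in HET (log2 fold change -2.91, SE 0.45, adjusted p = 0.0052). Upb1, an enzyme of pyrimidine breakdown, was at 10.5 and 9.51 CPM in WT and 1.51 and 1.05 in HET (-2.96, SE 0.63, adjusted p = 0.0324). In HOM they stood at 0.480 and 0.786 CPM (Marco) and 1.04 and 1.41 CPM (Upb1). Marco was at 2.45 to 3.45 CPM in the DMSO libraries and 5.42 to 12.7 with FGFRi. Upb1 differed among the wild-type DMSO libraries, at 1.11, 11.91 and 11.99 CPM, the first of them within the range of HET, and was at 5.69 to 9.19 CPM with FGFRi. The macrophage list as a whole held no call in 11 genes (median -0.06). An unadjusted p under 0.05 was reached by 3, beside 12.7% of all genes. Adgre1 overlapped between the groups. Lyz2 was at 43.3 and 32.9 CPM in WT and 17.7 and 21.1 in HET, and C1qa was at 0.879 and 1.95 in WT and 2.88 and 3.14 in HET. Pianp, a ligand of an inhibitory receptor, was at 5.49 and 7.46 CPM in WT, 0.681 and 1.05 in HET, against 10.4 and 11.05 in HOM (HET minus WT -2.88, SE 0.49, adjusted p = 0.0098). Lgals7, a galectin of stratified epithelium, was at 18.5 and 15.7 CPM in WT and 5.45 and 5.87 in HET (-1.60, SE 0.28, adjusted p = 0.0118), while the stratified list held no call in 19 genes (1 at an unadjusted p under 0.05).

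Smaller falls at higher levels included Smoc2, a matricellular protein (203 and 202 CPM in WT, 133 and 120 in HET), Anxa1, an annexin that binds phospholipid (510 and 494 in WT, 338 and 321 in HET), and Ly6e (145 and 174 in WT, 85.0 and 67.5 in HET). They were chosen after their values were seen. Smoc2 was at 125 to 131 CPM in the wild-type DMSO libraries, within the range of HET, and at 140 and 147 in HOM, so the untreated WT libraries were the high ones. Ly6e was at 99.0 to 133 CPM in DMSO, between HET and WT, and at 61.5 and 59.0 in HOM. Gsta4, a glutathione transferase, was at 62.1 and 59.6 CPM in WT, 33.8 and 30.2 in HET, against 60.5 and 60.8 in HOM (HET minus WT -0.93, SE 0.12, adjusted p = 0.0019), and HOM was higher than HET (adjusted p = 0.0011). Col2a1, the collagen of cartilage, was at 18.4 and 15.1 CPM in WT, 8.48 and 7.96 in HET, against 26.5 and 34.4 in HOM (adjusted p = 0.0374), the only call among 11 cartilage and bone genes.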

How the data were processed

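Read counts per gene were deposited by the authors as 1 unnormalised count table of 12 libraries, and its 52636 features all entered the work, with 0 unused columns. Base calling with bcl2fastq, alignment with STAR and the build GRCm39 are named in the submitters' processing notes, and for the counting program, its annotation and its strand setting the sources used here give nothing. Symbols were matched by Ensembl identifier to GENCODE M21 (52489 of 52636 matched). That release is on GRCm38, so no coordinates of it are printed, and promoter sequences are RefSeq's on GRCm38.p6. Without molecular identifiers, floors cover counting error only.

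Features passing edgeR's filterByExpr (minimum count 10, minimum total 15) were scaled by TMM and fitted with edgeR 4.0.16 (quasi-likelihood, R 4.3.3), with 1 coefficient per group over all 12 libraries (residual df 7, common biological coefficient of variation 0.110). P-values were adjusted by Benjamini-Hochberg over 15859 features, with a threshold of 0.05. The SE is the absolute log2 fold change divided by the square root of F. Lists, summed CPM and covariates used 33 marker lists. Named genes were a fixed panel, the 10 largest rises and falls at 5 CPM or more with separate groups and a symbol that is no clone name (such as Gm with a number), up to 4 genes per described list by p, and genes kept with both covariates; other named genes were chosen after their values were seen. The members and lists were chosen with earlier results of these data known. Alternatives changed the scaling, filter, libraries, replicate block, covariates and test (DESeq2 1.42.0, limma 3.58.1 voom, a minimum change), and left out each library in turn.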

Additional observations from a re-analysis of the deposited data

How the results depend on the processing

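Calls are given as higher, lower, then the same direction with FGFRi, mesenchyme lists and muscle lists, against 119, 46, 98, 12 and 8 as reported. Library totals gave 27 lower, 7 mesenchyme, 32 muscle and 1 gene beside Fgfr2. Epithelial scaling gave 285, 26, 233, 19 and 15. Without a filter there were 331, 158, 291, 21 and 35, and 1 gene beside Fgfr2. HET and WT libraries alone gave 189 higher, 19 mesenchyme and 22 muscle, and the 3 genotypes alone 271, 19 and 28. The mesenchyme covariate left 1, 7, 0, 0 and 0, the muscle covariate 26, 6, 11, 2 and 4, and both 1, 2, 0, 0 and 0. DESeq2 gave 73 lower and 18 muscle, voom 0 muscle, and a minimum log2 change of 1 gave 1, 3, 0, 0 and 0. Leaving out 1 library gave 6 to 162 higher, 7 to 56 lower, 4 to 129 with FGFRi, 0 to 17 mesenchyme and 0 to 24 muscle calls, and 0 beside Fgfr2. The cause was not tested, beyond the fewer libraries or added terms that these fits hold by construction.

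Same-numbered WT and HET libraries had deviations with a correlation of -0.16 over this single pair of differences, and the labels do not say that a number marks a shared animal or litter, so the numbers were not used as pairs. The replicate block over all 12 libraries gave 101 higher and 41 lower, and within HET and WT alone 244, 77, 19 mesenchyme and 24 muscle. The block with WT numbers crossed, chosen after seeing the data, gave 443, 194, 23 and 28, and 1 gene beside Fgfr2. Copies summed, chosen likewise, gave 116 and 41.

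Signs of log2 fold changes reversed for genes that were not called. Library totals gave Fgfr2 0.0466, Fgfr1 0.12, Etv4 0.0973, Etv5 0.0639 and Krt14 0.0356. Epithelial scaling gave Fgfr2 0.0879, Fgfr1 0.17, Etv4 0.14, Etv5 0.11, Sox10 0.00511 and Krt14 0.0976, and no filter Kit -0.0159. The mesenchyme covariate gave Fgfr1 0.0386, Fgf7 -0.0416, Spry1 -0.16, Sox10 0.0484 and Pdgfra -0.0428. The muscle covariate gave Fgfr1 0.0560, Etv4 0.18, Etv5 0.17 and Dusp6 0.0326. Both covariates gave Fgfr1 0.14, Fgf7 -0.46, Etv4 0.11, Etv5 0.20, Spry1 -0.23, Dusp6 0.11, Sox9 0.0354, Sox10 0.23, Cdh1 0.0839 and Pdgfra -0.17. Leaving out 1 library gave ranges of -0.14 to 0.0567 for Fgfr1, -0.20 to 0.0218 for Etv5, -0.0152 to 0.18 for Spry1, -0.0805 to 0.25 for Spry2, -0.0306 to 0.0300 for Kit, -0.50 to 1.99 for Krt5 and -0.56 to 0.55 for Krt14. With 2 libraries a genotype, leaving out 1 leaves a lone library that is assumed to vary like the other groups.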

Other observations

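Other marker lists held few calls in HET against WT. Among 26 Wnt pathway genes 1 rose (list median 0.07), and among 15 hypoxia genes 1 rose (0.03). No gene was called among 15 neuronal (0.04), 11 Schwann cell and glial (0.11), 5 adipocyte (0.46), 4 erythroid (0.86) and 8 interferon genes (-0.07), with 2, 1, 1, 0 and 1 at an unadjusted p under 0.05 by edgeR, which 12.7% of all genes reached. The same was true of 19 genes of the ATF4 stress response (0.14), 16 of folding in the endoplasmic reticulum (0.12), 12 heat shock (-0.04), 20 cholesterol synthesis (-0.05), 16 circadian (0.00) and 16 immediate early genes (0.08), with 2, 1, 3, 2, 1 and 3 unadjusted. The 9 granulocyte and mast cell genes held no call and 3 unadjusted, with a median of -3.79, or -2.20 with 4 genes set to their bound. The 12 FGF ligands and receptors tested held no call (0.31, 2 unadjusted).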
